A study of Mus musculus with 9 samples.

Results

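The genes described here encode cytokines, the secreted or membrane-bound messengers of the immune system, and the receptors that receive them. The list holds 32 genes, of which 18 encode receptor chains and 14 encode ligands, out of 21631 protein-coding genes in the GRCm38.p6 gene table. All 32 were found in that table, on 14 autosomes, at 20 loci when genes within 500 kb were joined. The contact level of a gene is the number of read pairs in listed interactions whose anchor midpoints lay at least 10 kb apart and of which either anchor overlapped the gene body or its 5 kb flanks. Each level is given in CPM, the count per 1000000 used read pairs of its library, and in CPM per kb of that window wherever genes of different length are set side by side.

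Most cytokine receptors work as pairs or larger groups of chains, often with one chain shared between several ligands. Many interleukin receptors, though not all, and the interferon receptors pass their signal through Janus kinases to STAT transcription factors. The receptors for transforming growth factor beta are themselves kinases that act on SMAD proteins. Double-positive thymocytes are known for low expression of the interleukin 7 receptor, which returns after positive selection, and the effector cytokines on the list are made mainly by mature T cells and innate lymphocytes.

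HiChIP joins proximity ligation to immunoprecipitation, so that sequenced read pairs report DNA segments brought together near a chosen protein or mark. The cells were sorted CD4+ CD8+ thymocytes of C57BL/6J mice (BL6 below), of NOD/ShiLtJ mice (NOD below), a strain that develops autoimmune diabetes, and of (NOD/ShiLtJ X C57BL/6) F1 mice. Age and sex are not given in the sources used here. An antibody to Smc1, a cohesin subunit, was used on BL6 (2 libraries), NOD (2 libraries) and F1 cells (1 library), and an antibody to H3K27ac, the acetylated histone found at promoters and enhancers in use, on BL6 and NOD cells (2 libraries each). All 9 libraries came from chromatin cut with MboI, and the labels name no allele or agent beyond the strain. The 2 Smc1 libraries of a strain are labelled technical replicates of 1 biological sample, so their spread is technical, and the H3K27ac pairs are labelled biological replicates. For the 4 samples with H3K27ac in the antibody field the titles say Smc1 instead, and the antibody field was followed here. The NOD tables were made on a NOD genome and shifted to the BL6 reference, so mapping genome and strain cannot be told apart. The F1 library was deposited on both genomes, which gives 10 tables for 9 libraries.

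Used read pairs ranged from 1484554 to 2620662 in the Smc1 libraries of BL6 and NOD, were 765188 (BL6 genome) and 791859 (NOD genome) for F1, and ranged from 381010 to 1203808 for H3K27ac. The 32 genes took between 0.132% and 0.228% of them, in 287 to 1257 distinct interactions per table. No listed interaction had fewer than 2 read pairs or a q-value above 0.05, so a level of 0 means that nothing passed this limit. Library 1 of H3K27ac in both strains stood apart: chromosome 16 held 1.13% and 0.97% of its read pairs in BL6 and NOD, against 2.55% to 3.94% in the other tables, and chromosome 7 held 9.80% and 11.5% against 5.56% to 7.11%. NOD library 2 of Smc1 lay in between, with 2.43% on chromosome 17 against 3.61% to 4.97% in the remaining tables. Markers of double-positive thymocytes (12 genes) had a median level between the 29.8 and 77.7 percentile of all genes in the Smc1 tables and between the 60.2 and 94.7 percentile for H3K27ac, and the median of 7 markers of B cells, another lineage, lay between the 68.0 and 81.6 percentile in all 10 tables. Over the same tables the median ran from the 44.8 to the 83.7 percentile for myeloid and dendritic markers and from 36.5 to 73.1 for natural killer markers. For erythroid markers it ran from 22.4 to 69.0 and for thymic epithelium from 47.9 to 84.6. At most 2 of the 12 thymocyte markers were at 0 in any table. The part of these markers in the results was not tested. Each library pools many cells, so more cells with a contact and more contacts per cell cannot be told apart.

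**Figure D1:**
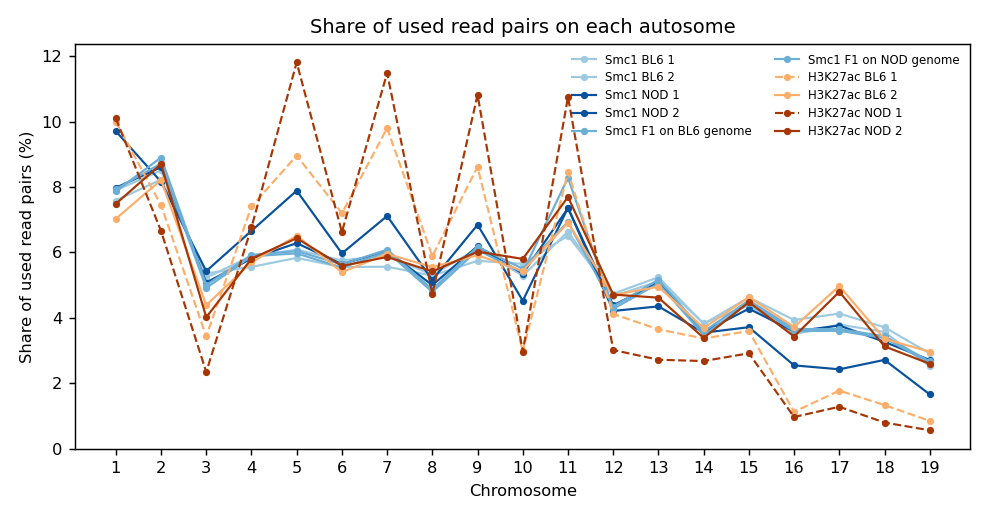
Share of used read pairs (%) on each autosome, 1 line per table. The dashed lines of H3K27ac library 1 of BL6 and NOD run above the others on chromosomes 1, 4 to 7, 9 and 11 and below them on chromosomes 2, 3, 10 and 12 to 19.

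The promoters of the 4 members with the highest contact level per kb among the 27 that the RefSeq promoter table (GRCm38.p6) holds are shown because they lie inside the windows scored here and because MboI cutting sites set where a read pair can begin. Il10ra, Il10rb, Il12rb1, Il15 and Il2rb were not among those 27. Each line gives the 250 bases before the start site, 5′ to 3′ on the strand of the gene: Il6st, chr13:112463820-112464069, plus strand; Il5, chr11:53720544-53720793, plus strand; Tgfbr2, chr9:116175364-116175613, minus strand; Csf2, chr11:54249900-54250149, minus strand. Capitals mark matches to the motifs searched.
Il6st promoter: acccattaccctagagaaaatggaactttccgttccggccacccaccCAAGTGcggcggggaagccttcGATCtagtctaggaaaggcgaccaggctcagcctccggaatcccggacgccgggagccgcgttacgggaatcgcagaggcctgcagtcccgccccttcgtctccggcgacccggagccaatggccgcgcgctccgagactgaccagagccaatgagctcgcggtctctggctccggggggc
Il5 promoter: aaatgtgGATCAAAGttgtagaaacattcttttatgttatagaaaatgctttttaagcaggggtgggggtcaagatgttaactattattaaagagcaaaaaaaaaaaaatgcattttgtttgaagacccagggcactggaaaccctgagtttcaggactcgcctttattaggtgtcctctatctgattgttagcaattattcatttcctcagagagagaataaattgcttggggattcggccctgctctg
Tgfbr2 promoter: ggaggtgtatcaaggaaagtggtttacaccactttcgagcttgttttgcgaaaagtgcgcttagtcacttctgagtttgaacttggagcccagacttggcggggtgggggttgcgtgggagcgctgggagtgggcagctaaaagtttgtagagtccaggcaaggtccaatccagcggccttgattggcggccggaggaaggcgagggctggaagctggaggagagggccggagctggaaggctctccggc
Csf2 promoter: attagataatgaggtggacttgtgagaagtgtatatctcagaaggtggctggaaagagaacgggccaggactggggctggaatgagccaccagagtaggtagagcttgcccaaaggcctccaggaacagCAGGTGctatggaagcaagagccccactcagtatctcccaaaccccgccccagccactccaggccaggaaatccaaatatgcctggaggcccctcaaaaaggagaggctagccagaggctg
The motifs were TGTGGT (RUNX core), CTTTGA (TCF/LEF), TTCNNNGAA (GAS, bound by STAT factors), TGANTCA (AP-1), CANNTG (E-box) and GATC (MboI), read on both strands. Il6st held a GATC beginning at -181 and an E-box at -203 from the start site. In Il5 a GATC at -243 overlapped a TCF/LEF match at -241. Csf2 held only an E-box, at -121, and Tgfbr2 held none of these letters. The 27 members have 33 distinct promoter sequences in the table, since 5 members have more than 1 start site. Of these 33 sequences, GATC was found in 12 (36.4%), the E-box in 23 (69.7%), GAS in 7 (21.2%), TCF/LEF in 5 (15.2%), RUNX in 4 (12.1%) and AP-1 in 2 (6.1%). Over all 32536 distinct promoter sequences of the same length, the shares were 41.7% for GATC, 66.2% for the E-box, 7.0% for GAS, 13.9% for TCF/LEF, 14% for RUNX and 6.7% for AP-1.

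Among the receptors, Il10ra and Il6st had the highest mean levels. Il10ra, which binds interleukin 10, led all members with 2.31 and 2.31 CPM per kb in the BL6 Smc1 libraries, 2.35 and 1.84 in NOD, 1.65 in F1 on the BL6 genome, 5.47 and 1.77 in BL6 H3K27ac and 3.94 and 4.44 in NOD H3K27ac. BL6 H3K27ac library 2 overlapped the Smc1 range, and the other H3K27ac libraries lay above it. Il6st (gp130, the signalling chain shared by the interleukin 6 family) had 2.45, 2.23, 2.31, 0.65 and 2.45 in the same order for Smc1, and 1.63, 2.66, 4.13 and 4.76 for H3K27ac. NOD Smc1 library 2 was the low one, and both NOD H3K27ac libraries were above both BL6 ones. Il12rb1, the chain common to the interleukin 12 and 23 receptors, had 2.26, 1.53, 2.60 and 1.69 in BL6 and NOD Smc1, 0.47 in F1, and 5.13, 1.72, 4.59 and 2.31 for H3K27ac. Its ligand-specific partners Il12rb2 and Il23r sat near the bottom of the list, at 0.16 to 0.64 and 0 to 0.92 over the 10 tables. Il6ra, the specific chain for interleukin 6, ranged from 0.55 to 1.96.

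Both receptor chains for transforming growth factor beta were among the 4 receptors with the highest mean levels. Tgfbr2, the ligand-binding chain, had 1.64 and 1.89 CPM per kb in BL6 Smc1, 2.23 and 2.00 in NOD, 2.49 in F1, 3.23 and 2.88 in BL6 H3K27ac and 2.77 and 2.22 in NOD H3K27ac. Tgfbr1, the chain that phosphorylates SMAD proteins, had 2.07, 2.19, 2.44, 2.59 and 2.37 for Smc1 and 1.90, 1.82, 2.64 and 2.49 for H3K27ac. For Tgfbr1 the highest table was less than 1.5 times the lowest, whereas Il6st, Il10ra and Il12rb1 spread more widely between libraries of 1 group.

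The 4 genes Ifnar2, Il10rb, Ifnar1 and Ifngr2, which encode chains of the type I interferon, interleukin 10 and interferon gamma receptors, lie within 191 kb on chromosome 16 and share some interactions. Ifnar1 had 2.15 and 0.85 CPM per kb in BL6 Smc1, 3.17 and 0.95 in NOD, 3.61 in F1, 1.66 and 2.34 in BL6 H3K27ac and 0.30 and 3.74 in NOD H3K27ac. Its low H3K27ac table was NOD library 1, the table with 0.97% of its read pairs on chromosome 16. Ifnar2 ranged from 0.83 to 2.15 for Smc1 and from 1.10 to 4.36 for H3K27ac, Ifngr2 from 0.67 to 1.96 and from 0.68 to 4.17, and Il10rb from 0.81 to 2.21 and from 1.06 to 2.91. Ifngr1, the ligand-binding chain for interferon gamma on chromosome 10, ran from 0.50 to 1.64 for Smc1 and from 0.65 to 6.96 for H3K27ac.

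The remaining receptors bind ligands of the common gamma chain and interleukin 1 families. Il2rb, shared by the interleukin 2 and 15 receptors, ranged from 0.84 to 3.29 over the 10 tables, and Il15ra, which presents interleukin 15, from 0.64 to 2.12. Il7r had 0.75 and 0.72 in BL6 Smc1, 0.37 and 0.72 in NOD and 1.74 in F1, and for H3K27ac it was at 0 in library 1 of both strains, with 0.57 and 0.30 in library 2. The F1 library thus had the highest Il7r level of any library, without a replicate to set it against. Chromosome 15, which holds Il7r, had 3.60% (BL6) and 2.92% (NOD) of read pairs in H3K27ac library 1, against 3.72% to 4.64% in the other tables. Il1r1 ranged from 0.78 to 2.02 and Il18r1 from 0.62 to 2.32.

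Of the cytokine genes, Il5, Csf2 and Il13 on chromosome 11 had the highest mean levels. Il5, the eosinophil growth factor, had 1.77 and 1.79 CPM per kb in BL6 Smc1, 1.85 and 2.12 in NOD, 3.56 in F1, 2.69 and 2.44 in BL6 H3K27ac and 3.67 and 2.25 in NOD H3K27ac. All H3K27ac libraries lay above the BL6 and NOD Smc1 libraries, and the F1 library overlapped them. Csf2 (GM-CSF) had 1.46, 2.24, 2.43, 3.31 and 1.97 for Smc1 and 3.41, 2.50, 2.70 and 1.11 for H3K27ac, and the ranges of the antibodies overlapped. Il13, which acts on epithelium and macrophages, had 1.14, 0.60, 2.29, 1.31 and 1.17 for Smc1 and 2.88, 3.54, 4.90 and 3.15 for H3K27ac, with no overlap. Il3 ranged from 0.93 to 5.17, and Il4, the defining type 2 cytokine, from 0 in F1 on both genomes to 2.66.

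The TNF family genes Tnf, Lta and Ltb lie within 11.1 kb on chromosome 17 with overlapping windows, so that 1 interaction can count for each of them. Tnf and Ltb were at 0 in NOD Smc1 library 2 and between 1.22 and 2.03 in the other Smc1 tables, and between 1.87 and 5.24 for H3K27ac. Lta was at 0 in 5 of the 10 tables. Tgfb1, the ligand of the Tgfbr1 and Tgfbr2 chains, ranged from 0.75 to 1.93 for Smc1 and from 1.63 to 6.46 for H3K27ac. Il15, which supports natural killer and memory T cells, had 0.79, 1.12, 1.05, 1.52 and 1.12 for Smc1 and 0.81, 1.02, 0.58 and 0.49 for H3K27ac. The interleukin 17 genes Il17a and Il17f did not pass 1.20 in any table and were both at 0 in the same 2 H3K27ac tables. Il22, a cytokine of the interleukin 10 family, was the lowest member and was at 0 in 6 of 10 tables. Ifng was at 0 in library 1 of H3K27ac in both strains, where chromosome 10 held 2.97% of the read pairs against 4.52% to 5.80% in the other tables. No member was at 0 in every table.

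**Figure D2:**
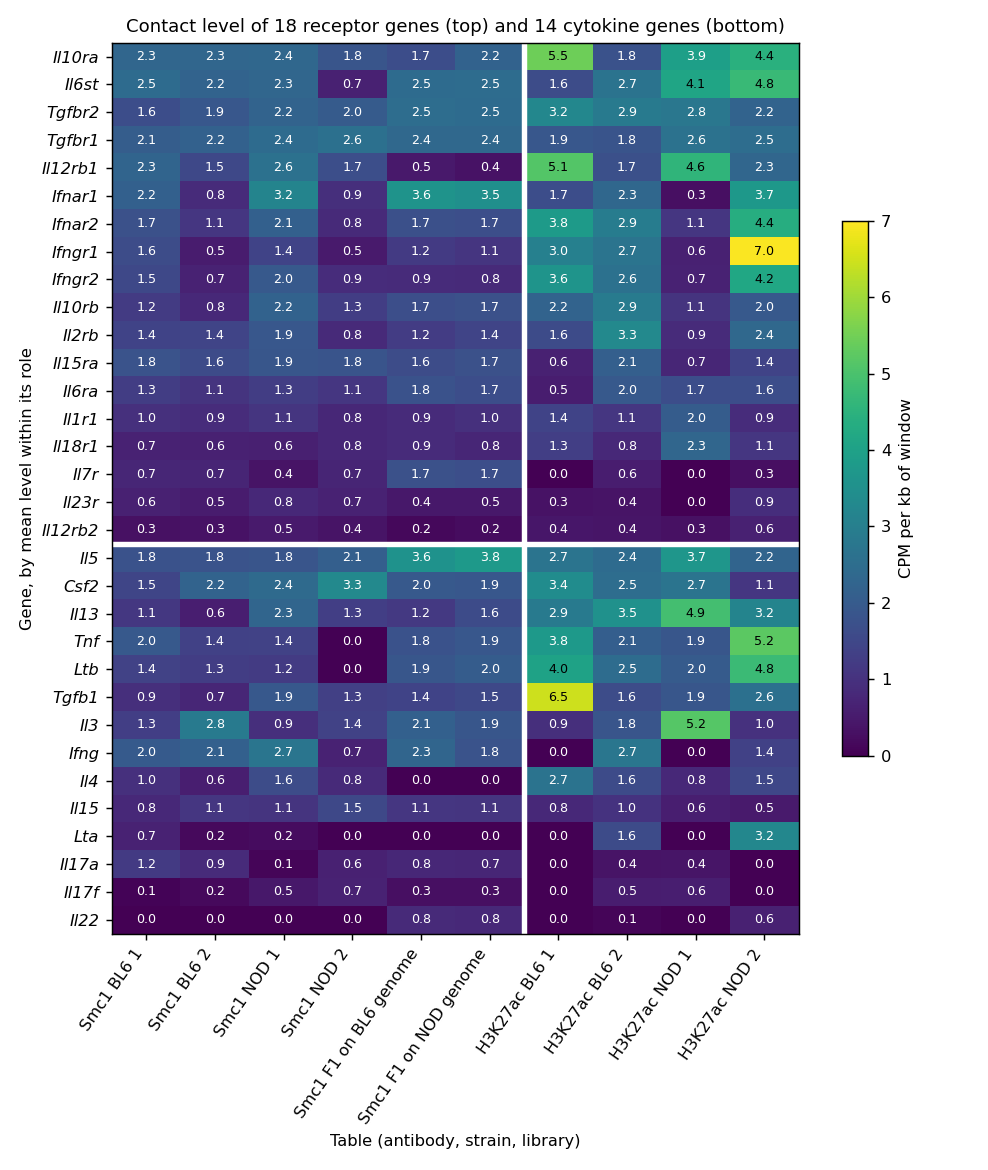
Contact level of each gene (rows; receptors above, cytokines below, by mean level) in each of the 10 tables (columns), in CPM per kb of window. Il10ra, Il6st, Tgfbr2 and Tgfbr1 lead the receptors and Il5, Csf2 and Il13 the cytokines, while Il12rb2, Il17f and Il22 are lowest.

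Receptors and cytokines were then compared as groups. Receptor windows summed to 933 kb (median 42.6 kb) and cytokine windows to 277 kb (median 13.9 kb). An interaction shared by several members counts once for each, so the sums hold repeats. In NOD H3K27ac library 2 the members summed to 1228 read pairs, of which 1133 were distinct. The ratio of roles without repeats was not computed. Per kb, receptors had between 1.12 and 1.60 CPM in the Smc1 tables and between 1.63 and 2.18 for H3K27ac, and cytokines between 1.00 and 1.28 and between 1.41 and 1.87. Both groups were thus higher with H3K27ac than with Smc1 in every table, also when each gene was scaled by the read pairs on its own chromosome (receptors 1.11 to 1.57 and 1.76 to 2.40; cytokines 1.04 to 1.35 and 1.39 to 1.91). The same sum over all protein-coding genes also separated the antibodies, at 0.88 to 0.96 for Smc1 and 1.06 to 1.14 for H3K27ac. Divided by that sum, receptors were at 1.27 to 1.67 times the level of all genes for Smc1 and 1.53 to 1.92 for H3K27ac, and cytokines at 1.06 to 1.37 and 1.32 to 1.76, and these ranges overlapped. All genes include those of chromosome X, which held at most 0.0108% of read pairs, while every member is autosomal. This raises the multiples, and the percentiles of autosomal genes given elsewhere, by an amount not determined.

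The log2 ratio of receptor to cytokine level per kb was 0.43 and 0.12 in BL6 Smc1, 0.34 and -0.005 in NOD Smc1 and 0.18 in F1. With the technical replicates of a strain averaged, it was 0.27 in BL6, 0.17 in NOD and 0.18 in F1, a mean of 0.21 ± 0.06 (SD, n = 3 samples) for Smc1, while the 2 libraries of 1 sample differed by 0.31 in BL6 and 0.34 in NOD. For H3K27ac it was -0.06 and 0.21 in BL6 and 0.21 and 0.49 in NOD, a mean of 0.21 ± 0.22 (SD, n = 4). Receptors were the higher group in 8 of the 10 tables, but the mean ratio was smaller than the difference between technical replicates for Smc1 and about the size of its SD for H3K27ac, and the values of BL6 and NOD overlapped. Counting only the gene body turned the Smc1 mean to -0.07. Without any correction for window length the ratio of means per gene was 1.60 on the log2 scale with either antibody, since receptor genes are longer.

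**Figure D3:**
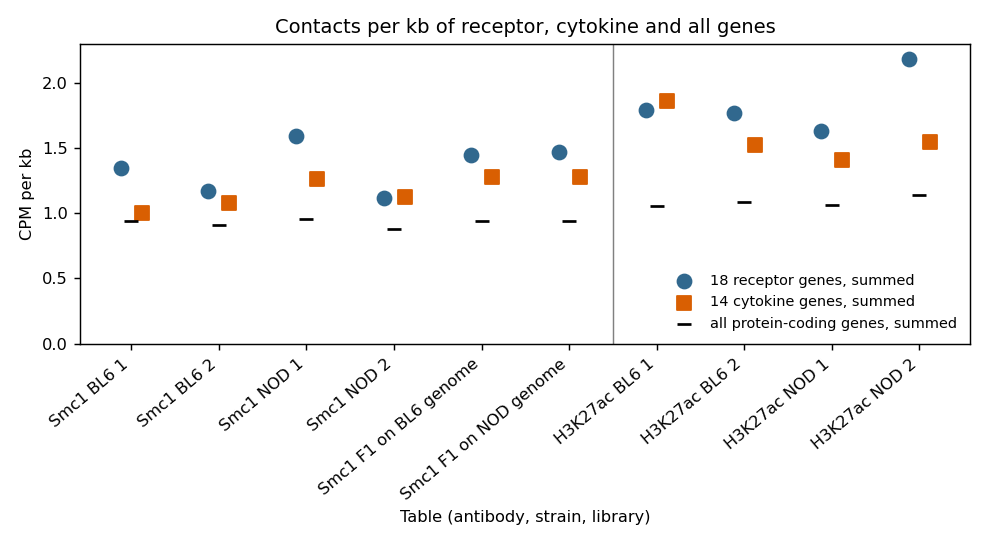
Summed CPM per kb of receptor genes (circles), cytokine genes (squares) and all protein-coding genes (bars) in each table. Both groups lie above the bar, which includes the nearly empty chromosome X, in every table. Circles and squares coincide in Smc1 NOD 2 and change order in H3K27ac BL6 1.

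Distances were described per role, without a test. The median over receptors of the gene's median distance was 248 to 591 kb per table, and over cytokines 432 to 730 kb, with the cytokine value higher in all 10 tables. The share of read pairs beyond 500 kb was also higher for cytokines in each table, at 47.4% to 62.0% against 33.3% to 52.1%. The median over all used interactions, not weighted by read pairs, was 544 to 807 kb. The median distance of each gene was weighted by read pairs, so the values of the roles cannot be set against it. Read pairs with both anchors inside one gene's own window, which longer windows allow more often, were at most 5.09% for receptors and 1.02% for cytokines. Tnf and Ltb had short distances throughout, with a median of 13.1 to 79.5 kb in the 9 tables that list them. Medians as short were also found in some tables for Lta (26.2 to 940 kb in 5 tables) and Il4 (69.0 to 1832 kb in 8 tables).

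Contacts at start sites could be placed for the 27 genes in the promoter table, as the share of a gene's read pairs with an anchor within 2 kb of a start site. The share differed widely among cytokines with short genes. Its median over tables was 100% for Il3 (lowest 51.9%), 56.5% for Il5 (20% to 100%) and 78.6% for Il4 (0% to 100% in 8 tables), where that stretch made up 32.8%, 28% and 32.9% of the window. Il3 exceeded its stretch in all 10 tables, Il5 in 8 of 10 and Il4 in 5 of 8. The median was 0% for both Il17a and Il17f, whose stretches cover 29.4% and 22.1%, and 33.9% for Il13, against 29.9%. For Tnf (median 13.3%) and Csf2 (16.0%) the share was below the 31.7% of the window that it covers. Ltb and Lta, whose windows overlap that of Tnf, had a median of 100%, against 33.9% and 32.2% of the window. Ltb exceeded its stretch in 8 of 9 tables and Lta in 3 of 5. Among receptors, the share for Il6st was between 0% and 13.6% in 8 tables and reached 60.5% in BL6 H3K27ac library 1 and 26.5% in NOD H3K27ac library 1, against 7.6% of the window.

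The comparison of NOD with BL6 asked whether contacts of these genes differ between the autoimmune-prone strain and the reference strain. With Smc1, none of 30 tested members changed by edgeR's quasi-likelihood test after Benjamini-Hochberg adjustment over all genes (smallest adjusted p = 0.999), where 34 of 18095 genes, or 0.188%, did. None had an unadjusted p under 0.05, which 3.59% of genes had, and DESeq2 also called none. The Smc1 libraries of each strain are technical replicates, so the Smc1 strain calls, p-values and SEs measure technical spread. They do not measure variation between biological samples of a strain. The smallest unadjusted p was that of Tgfb1, with 26.3 and 21.0 CPM in BL6 and 54.1 and 37.1 in NOD (log2 fold change 0.97, SE 0.44, unadjusted p = 0.0524, edgeR). Il17f had 1.05 and 3.43 in BL6 and 8.42 and 12.1 in NOD (log2 2.16, SE 1.14, unadjusted p = 0.0852, edgeR), on 2 to 18 read pairs per library. Il10rb (log2 0.80, SE 0.44), Il13 (1.07, SE 0.64), Il17a (-1.42, SE 1.01) and Il6st (-0.66, SE 0.46) had unadjusted edgeR p-values from 0.096 to 0.187.

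Both NOD libraries exceeded both BL6 libraries for 11 of the 30 tested members and the reverse held for 3, where 15.6% and 17.8% of all tested genes did so. The 11 were the receptors Il12rb2, Il15ra, Il10rb, Tgfbr1, Tgfbr2 and Il23r and the cytokines Il5, Il13, Il17f, Tgfb1 and Csf2, and the 3 were Il7r, Il17a and Ltb. Il5, Il13 and Csf2 lie on chromosome 11, which held 7.35% and 7.36% of read pairs in the NOD libraries and 6.51% and 6.64% in the BL6 libraries. With each gene scaled by the read pairs on its own chromosome, both NOD libraries were higher for 7 members (Il15ra, Il10rb, Tgfbr1, Il15, Il13, Il17f and Tgfb1; 14.5% of genes) and lower for 4 (Il18r1, Il17a, Ltb and Il3; 17.6% of genes), so Il13 stayed separated on that scale and Il5 and Csf2 did not. The median log2 fold change was 0.17 over members (20 of 30 above 0) and 0.00 over all genes, and 0.12 over members with chromosome scaling (18 of 30 above 0). It turned to -0.02 (14 of 31 above 0) without BL6 library 2, and was 0.07 without NOD library 1 and 0.28 without NOD library 2. Leaving out NOD library 1, so that NOD rested on library 2 alone and its spread was assumed to be that of BL6, Il6st (log2 -1.72, adjusted p = 0.00345), Tnf (adjusted p = 0.00254) and Ltb (adjusted p = 0.0116) were called by edgeR, and calls over all genes went from 34 to 805. Tnf and Ltb are the genes at 0 in NOD library 2, where chromosome 17 held 2.43% of read pairs. Leaving out BL6 library 1 or 2 left 7 and 0 calls over all genes, and no member.

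With H3K27ac, none of 26 tested members changed between NOD and BL6 by edgeR (smallest adjusted p = 1), as for all 13974 genes tested (0.0%), of which 0.744% had an unadjusted p under 0.05. No member did, and DESeq2 called 20 genes and no member. Il7r, Il17a, Il17f, Ifng, Lta and Il22 were too low to test. Il6st had the smallest p, with 86.2 and 140.4 CPM in BL6 and 217.8 and 251.1 in NOD (log2 1.01, SE 0.55, unadjusted p = 0.114, edgeR). The fold changes of Il15 (-0.79, SE 0.68), Il10rb (-0.79, SE 0.71), Tgfb1 (-0.87, SE 0.83), Il3 (1.11, SE 1.20) and Il18r1 (0.70, SE 0.76) were about as large as their errors. NOD libraries were both higher for Il6st and Tgfbr1 (11.2% of genes) and both lower for Il10rb, Tgfbr2, Il15 and Il4 (10.2% of genes). With each gene scaled by its own chromosome, they were both higher for Il6st, Il18r1 and Tgfbr1 (13.9% of genes). On that scale they were both lower for Tgfbr2, Il15, Il4 and Csf2 (11.9% of genes), and Il10rb was no longer separated. In counts simulated at these depths and spreads the test called 4.3% of 16-fold changes for H3K27ac, against 72% of 4-fold changes for Smc1, so most strain differences of this size were not detectable with H3K27ac. The spread simulated for Smc1 was technical. Leaving out NOD library 2 gave 63 calls over all genes, and no member.

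The difference between the strain effects of the antibodies was tested as an interaction over the 8 BL6 and NOD libraries. The spread in that fit mixed technical Smc1 replicates with biological H3K27ac replicates. No member and no gene of 18137 was called by edgeR (0.0%) or DESeq2, 1.87% of genes had an unadjusted p under 0.05, and no member did. Il6st came closest (log2 1.66, SE 0.79, unadjusted p = 0.0655): it was lower in NOD with Smc1, through library 2, and higher in NOD with H3K27ac. Il10rb went the other way (log2 -1.60, SE 0.78), with 36.3 and 24.0 CPM in BL6 and 65.5 and 37.7 in NOD for Smc1, and 65.8 and 86.4 in BL6 and 31.5 and 58.3 in NOD for H3K27ac. Tgfb1 (-1.85, SE 0.94), Il15 (-1.29, SE 0.69), Il4 (-1.57, SE 1.13) and Il3 (1.87, SE 1.36) had unadjusted edgeR p-values of 0.0816 to 0.201.

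Between antibodies, with strain in the model, contacts of no member changed among 31 tested by edgeR (smallest adjusted p = 0.23), where 372 of 17615 genes did (2.11%; 22 higher and 350 lower with H3K27ac); DESeq2 called no member and 1494 genes. Here too the spread mixed technical Smc1 replicates with biological H3K27ac replicates, so the p-values do not measure variation between biological samples for Smc1. In simulated counts this fit called 0% of 2-fold and 20.8% of 4-fold changes, so most differences of that size were not detectable. An unadjusted p under 0.05 was found for 2 members and 15.6% of genes. Il13 was higher with H3K27ac: 15.3, 8.01, 30.7 and 17.5 CPM in BL6 and NOD Smc1 and 38.6, 47.4, 65.6 and 42.2 with H3K27ac (log2 1.22, SE 0.47, unadjusted p = 0.0249). Il15 was lower: 64.7, 91.2, 86.0 and 123.9 with Smc1 and 65.8, 83.1, 47.2 and 40.2 with H3K27ac (log2 -0.96, SE 0.38, unadjusted p = 0.0305), with overlap in BL6. Ifngr1 had 46.3, 14.9, 39.7 and 14.2 with Smc1 and 86.2, 76.4, 18.4 and 196.9 with H3K27ac (log2 1.40, SE 0.64), Tgfb1 rested on 181.4 in BL6 H3K27ac library 1 (1.05, SE 0.55), where chromosome 7 held 9.80% of read pairs, and Il15ra (-0.82, SE 0.42) and Il7r (-1.79, SE 0.95) were lower.

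**Figure D4:**
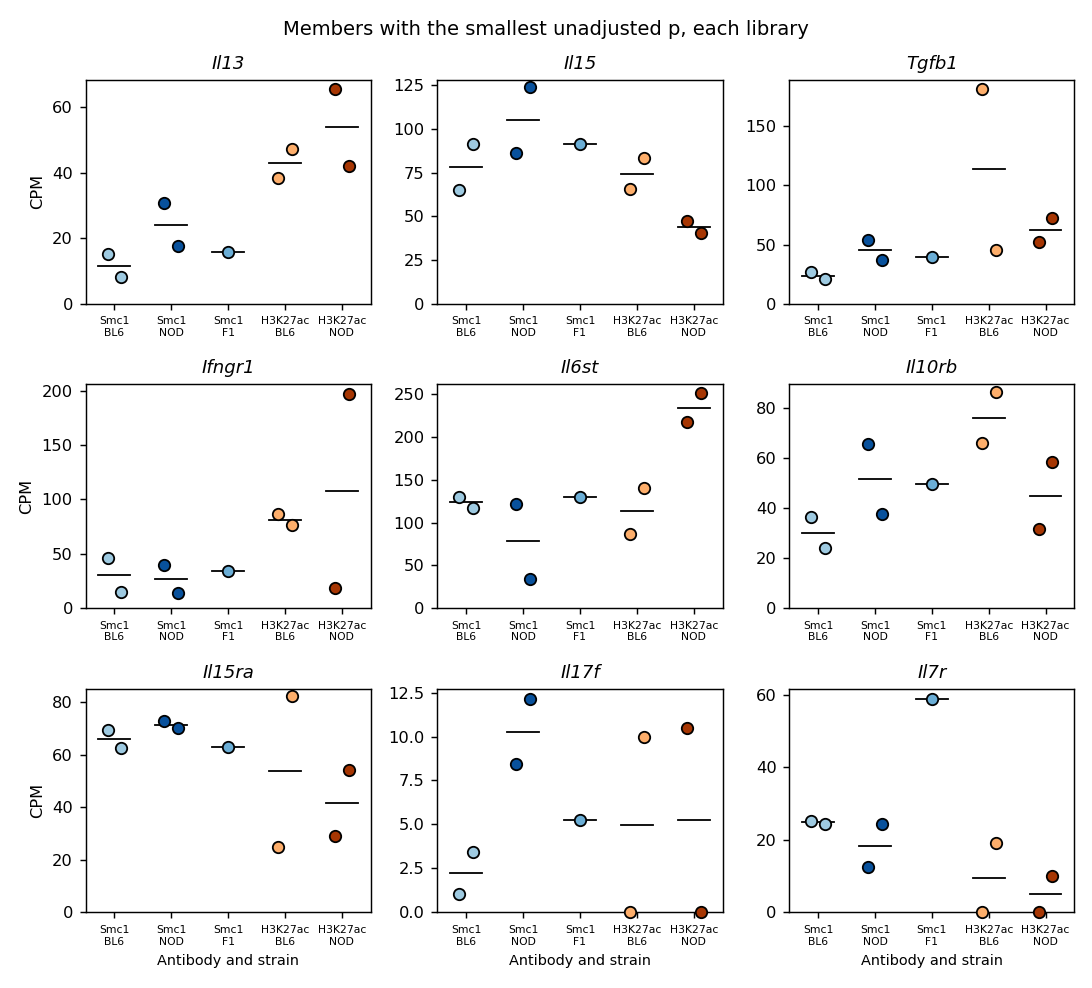
CPM of the 9 members with the smallest unadjusted p in any of the 4 fits, 1 panel per gene. Points are libraries (F1 on the BL6 genome) and bars group means. All 4 H3K27ac points of Il13 lie above all Smc1 points, and most other panels show overlap or 1 library that decides a mean.

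The BL6 and NOD libraries of the antibodies did not overlap for 4 members, all higher with H3K27ac (Il18r1, Il5, Il13 and Ltb), against 10.4% of genes higher and 7.39% lower with H3K27ac. With the F1 tables counted as Smc1, Il13 alone among members stayed without overlap, against 8.29% of genes higher and 5.92% lower. The median log2 change was 0.23 for receptors, 0.23 for cytokines and -0.06 for all genes. When 1 library was left out, the receptor median ranged from 0.11 (without BL6 H3K27ac library 2) to 0.42 (without NOD Smc1 library 1) and the cytokine median from 0.10 (without NOD H3K27ac library 1) to 0.37 (without NOD H3K27ac library 2). Scaling each gene by its own chromosome, an alternative added after the data were seen, moved the median of all genes to 0.24 and that of members to 0.50 and gave 828 calls, 373 higher and 455 lower. Ifnar2 was then called (log2 1.90, adjusted p = 0.0458, edgeR), with 1353 to 2565 per 1000000 read pairs of chromosome 16 in the Smc1 tables and 3391 to 14446 with H3K27ac. Without library 1 of H3K27ac in both strains, also added later, 1276 genes and no member were called, and the median of members was 0.08. Leaving out 1 Smc1 library gave 116 to 159 calls and leaving out NOD H3K27ac library 1 or 2 gave 240 and 228, with no member among them.

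Contacts between members were found at 3 of the 8 loci that hold more than 1 member, and most were in the interferon receptor cluster. Ifnar2 and Ifnar1, whose products form the type I interferon receptor, were joined by 16 and 9 read pairs in BL6 Smc1, 30 and 7 in NOD, 11 in F1 on either genome, 4 and 8 in BL6 H3K27ac and 0 and 17 in NOD H3K27ac. Ifnar1 and Ifngr2 were joined by 17, 4, 35, 8, 8 and 8 read pairs in the 6 Smc1 tables and by 3, 7, 0 and 6 with H3K27ac. Both contacts were listed in 9 of the 10 tables and missing from NOD H3K27ac library 1. Il10rb to Ifnar1 was listed in both NOD Smc1 libraries (21 and 9), in F1 (7) and in NOD H3K27ac library 2 (9), and in no BL6 library. Il10rb to Ifngr2 was listed in BL6 libraries only (9 in Smc1 library 1, 12 and 3 with H3K27ac). The windows of Il10rb and Ifnar2 overlap, and those 12 read pairs also count for Ifnar2 to Ifngr2. That pair had 10 and 4 in BL6 Smc1, 0 and 2 in NOD Smc1, and 15 and 8 in BL6 H3K27ac. The strain difference in these pairs was not tested, and a missing pair is only under the listing limit.

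**Figure D5:**
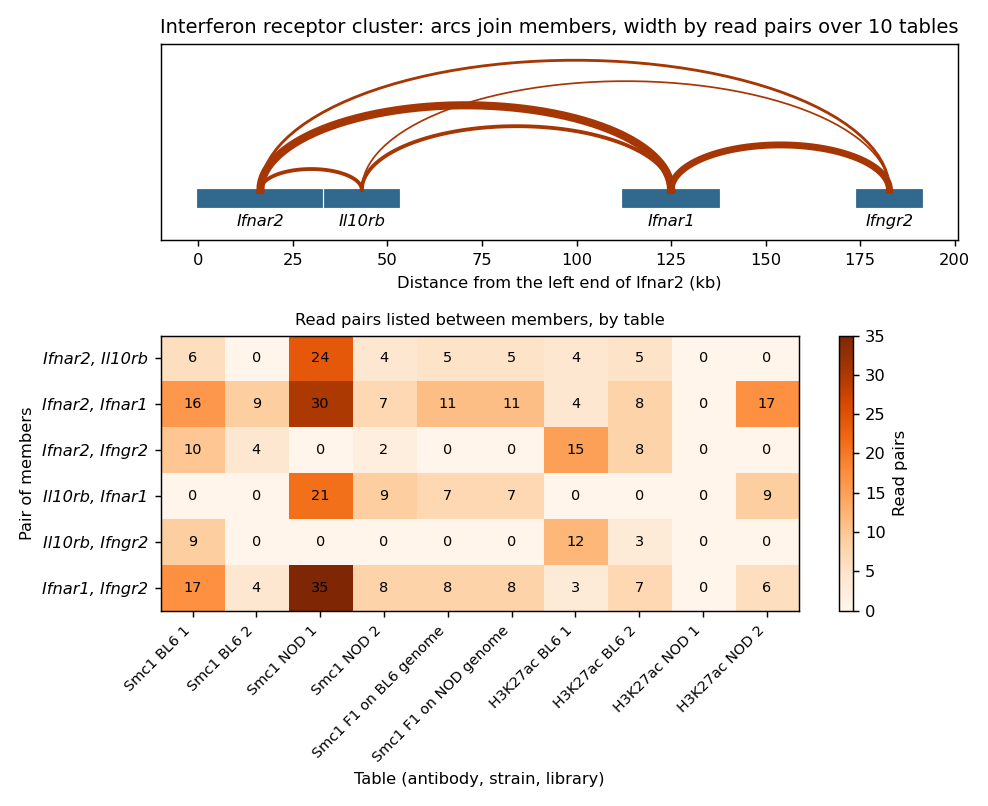
Above, gene bodies of the cluster by distance from the left end of Ifnar2 (kb), with arcs whose width follows the read pairs summed over the 10 tables. Below, the read pairs listed between each pair of members in each table: Ifnar2 with Ifnar1 and Ifnar1 with Ifngr2 are listed in 9 of 10 tables.

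At the Il12rb2 and Il23r locus, 13, 13, 19 and 6 read pairs joined the windows in BL6 and NOD Smc1, 3 in F1, and 10 in NOD H3K27ac library 2, with none in the other H3K27ac tables. Il1r1 and Il18r1 were joined by 3 and 3 read pairs in BL6 Smc1 and 6 in BL6 H3K27ac library 1. No table listed an interaction of at least 10 kb between Il4, Il13 and Il5, between Csf2 and Il3, between Il17a and Il17f or between Il22 and Ifng, although the gene bodies of Il4 and Il13 lie 12.7 kb apart and those of Csf2 and Il3 15.2 kb. None was listed between the overlapping windows of Ltb, Tnf and Lta either.

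Among the 10 members with the highest levels, the steadiest partners outside the list belonged to receptor genes with long windows. Partner counts are raw read pairs, so they do not compare the roles. They are summed over the whole partner gene and its flanks and are not corrected for its length. The partner Rbms3, for example, runs from chr9:116572746 to chr9:117629913, and Fstl4 from chr11:52764489 to chr11:53192450. The windows of Tgfbr1, Tgfbr2 and Il6st span 71.7, 97.7 and 52.8 kb, and those of Il5, Csf2 and Il13 14.3, 12.6 and 13.4 kb. Tgfbr1 was joined to Col15a1, a collagen gene 40.1 kb away, by 102, 103, 92 and 84 read pairs in BL6 and NOD Smc1, 16 in F1, and 17, 34, 13 and 27 with H3K27ac. Tgfbr2 was joined to Rbms3, 397 kb away, by 28, 62, 26, 15 and 21 read pairs with Smc1 and 12, 29, 10 and 12 with H3K27ac, and Il6st to Ankrd55, its neighbour 80.1 kb away, by 63, 80, 34, 10 and 15 and by 7, 26, 5 and 15. These 3 pairs were in all 10 tables. Il10ra was joined to BC049352 (2.47 kb away) in 6 tables, Ifnar1 to Gart (111 kb) in 8, Ifnar2 to Itsn1 (324 kb) in 9 and Il12rb1 to Kcnn1 (19.6 kb) in 5. Il5, Csf2 and Il13 shared the partner Fstl4, in 7, 7 and 9 tables, with at most 9 read pairs in any of them.

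At 10 kb resolution few of the top bin pairs recurred. They were ranked by mean CPM over libraries, which gives more weight to a read pair of a smaller library. The top bin pair of Il6st, with chr13:112420001-112430000 at one end and chr13:112460001-112470000, which holds its start site, at the other, had 8, 5 and 4 read pairs in BL6 and NOD Smc1 and 13, 18 and 16 in BL6 H3K27ac library 1 and both NOD H3K27ac libraries. It was the only top bin pair found in 6 tables. That of Tgfbr1, between chr4:47250001-47260000 in Col15a1 and chr4:47350001-47360000, had 4, 5, 15 and 6 read pairs in BL6 and NOD Smc1 and 6 in NOD H3K27ac library 2. Those of Tgfbr2 (23 read pairs), Ifnar2 (13) and Ifnar1 (11) were in BL6 H3K27ac library 1 alone, those of Il12rb1 (10) and Il13 (4) also in 1 H3K27ac table, and those of Il5, Csf2 and Il10ra in 4, 3 and 3 tables. Tgfbr2, Ifnar2 and Ifnar1 also had lower-ranked bin pairs that were listed in 4 tables.

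Other genes of the same pathways give the setting: 49 further receptors, ligands, Janus kinases, STAT and SOCS genes. Their median level was 1.09 to 1.79 CPM per kb, with medians at the 58.0 to 71.2 percentile of all genes. None of them was called between strains. With H3K27ac against Smc1, 1 of 45 tested rose and 1 fell. Il21r, the interleukin 21 receptor, rose from 1.05 to 1.80 CPM per kb in BL6 and NOD Smc1 to 2.69 to 11.9 with H3K27ac (log2 2.01, adjusted p = 0.044, edgeR). Il1rap, the accessory chain of the interleukin 1 receptor, fell from 0.30 to 0.49 to 0 to 0.14 (log2 -3.15, adjusted p = 0.0454, edgeR). Both were called without either BL6 H3K27ac library, and neither was called when any other library was left out, with gene ends in place of the whole gene or with at least 3 read pairs per interaction.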

How the data were processed

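HiChIP tables of 9 libraries (10 tables) were used. The authors deposited whole-number counts of read pairs per interaction and of reads per anchor, without normalization, per the file headers. A p-value and a q-value per interaction were deposited as well, and only the q-value was read, to check the listing limit. Tools listed in the submitters' processing notes are MACS, HiC-Pro and Juicer 1.7.6 (roles not given in the sources used here), with the build GRCm38. Interactions on chromosomes 1 to 19 and X at least 10 kb apart were summed per protein-coding gene (gene body and 5 kb flanks, RefSeq GRCm38.p6), each interaction once per gene, with Python 3.11.15 and pandas 2.3.3. The sums were tested over all genes with edgeR 4.0.16 (quasi-likelihood, TMM, default filter) in R 4.3.3, with Benjamini-Hochberg adjustment and a threshold of 0.05. An SE is the absolute log2 fold change divided by the root of the F statistic. Strains were compared within each antibody on 4 libraries, and antibodies and the interaction over 8. F1 entered no test.

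Members, roles and lists were chosen with earlier results of these data known. The rule for naming gave library values for the 8 highest members per kb and members with an unadjusted p under 0.05, fold changes for the 6 smallest p per fit, and partners for up to 10 members. Other values were chosen after being seen. Simulated counts with 200 changed genes were used to test the fits. Alternatives were DESeq2 1.42.0, RLE factors, no filter, other windows, at least 3 read pairs, at least 20 kb, a replicate block and leaving out each library; scaling by chromosome, leaving out library 1 of H3K27ac in both strains, counting F1 tables as Smc1 and averaging technical replicates were added after the data were seen. Numbers of the libraries are not tied to a shared animal or day in the labels, so they were not treated as pairs.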

Additional observations from a re-analysis of the deposited data

Results flagged for a closer look

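Interactions under 10 kb were outside every comparison above. There, Il6ra, the interleukin 6 receptor, had 40 read pairs in NOD Smc1 library 1 and 25 in NOD Smc1 library 2, against 0 in both BL6 Smc1 libraries, and this excess in data outside the main measurement is why it is given. The F1 library had 10 on either genome, and no H3K27ac table listed any. It was chosen after its values were seen, strain and mapping genome cannot be told apart in it, and no test was made.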

How the results depend on the processing

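No alternative with all libraries called a member between strains. The Smc1 strain count of 34 genes became 17 with gene ends, 14 with gene bodies alone and 15 with at least 3 read pairs, and ranged from 0 to 805 when 1 library was left out. The H3K27ac strain count of 0 became 20 with DESeq2, 4 without a filter and 33 with a replicate block, and ranged from 0 to 63. The antibody count of 372 became 1494 with DESeq2 (309 higher, 1185 lower), 0 with gene ends, 113 with at least 3 read pairs, 3297 with a replicate block (782 higher, 2515 lower), 828 with chromosome scaling and 1276 without library 1 of H3K27ac in both strains (285 higher, 991 lower), and ranged from 116 to 508. With gene ends 1994 genes still had an unadjusted p under 0.05. The interaction count stayed at 0 under every alternative run. The cause of these changes was not tested.

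With the replicate block the Smc1 strain count was 50, and Il15ra (adjusted p = 0.0325), Ifng (0.0069) and Il7r (0.0243) were called by edgeR as lower with H3K27ac. Deviations of libraries with the same number in the titles correlated across 18137 genes at 0.217 for Smc1 and 0.488 for H3K27ac; each rests on 2 pairs and genes are not independent. The deposited NOD Smc1 tables carry other numbers than the titles, so which Smc1 libraries share a number is in doubt, and the crossed pairing gives -0.217.

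The receptor to cytokine log2 ratio became 1.60 for Smc1 and 1.60 for H3K27ac without window length, -0.071 for Smc1 with gene bodies alone, and 0.47 with gene ends and 0.44 with at least 3 read pairs for H3K27ac. Of the fold changes given, 2 changed sign when a library was left out: between strains with H3K27ac, Tgfb1 ranged from -1.55 to 0.42 (0.42 without BL6 library 1) and Il3 from -0.57 (without NOD library 1) to 1.86. The H3K27ac libraries had the fewest used read pairs of BL6 and NOD, and the simulations did not separate depth from spread between libraries.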
